A study of Mus musculus with 22 samples.

Results

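The genes described here are 35 genes of hepatic lipogenesis, triglyceride storage and lipoprotein export, chosen by name from the 53392 genes of a table of liver RNA sequencing. All 35 were found, and all 35 passed the filter on low counts that left 15928 genes for testing. The rule used gene names and no measured value, but the genes were chosen with earlier results of these data known. The study compared livers of 22 female C57BL/6 mice, 1 library per mouse. Germ-free pregnant mice (GP, n = 5) and germ-free non-pregnant mice (GN, n = 6) were raised without microorganisms. Conventional pregnant mice (CP, n = 5) and conventional non-pregnant mice (CN, n = 6) carried an ordinary gut microbiota. No genetic modification was labelled in any group, and all received the same autoclaved diet. Pregnant mice were taken at gestation day 15. That day was counted from an overnight mating in CP mice, but was assumed after a mating of 72 h in GP mice, so gestational age was less certain in GP. The age labels, whose unit was not stated, ran from 91 to 121 in GP and from 92 to 105 in GN, against 70 to 77 in both conventional groups. Age and microbiota status therefore cannot be told apart. The title of the series concerns the microbiome and drug-processing genes in pregnancy, and the lipid genes were measured in the same libraries.

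The liver makes fatty acids from citrate and acetate carbon, under the control of the transcription factors SREBP-1c and ChREBP, the products of Srebf1 and Mlxipl. Fatty acids are joined to glycerol to form triglyceride, which is either stored in droplets or loaded onto apolipoprotein B and secreted as very low density lipoprotein (VLDL). In late pregnancy plasma triglyceride rises in mammals, and lipoproteins carry lipid toward the placenta and the mammary gland.

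Total estimated counts per library were 18064491 to 30036912, and the 35 genes together took 3.73% to 6.55% of them. Levels are given in CPM, the counts of a gene relative to the effective size of its library. The threshold for a call was an adjusted p under 0.05 in edgeR's quasi-likelihood test over all genes. The summed level of 6 hepatocyte markers was 103153 to 161835 CPM in GP and 44804 to 75963 CPM in GN, and 54205 to 218240.0 CPM in CP and 51486 to 77613 CPM in CN. Of these markers, 2 were called higher and 1 lower in each pregnancy comparison, and albumin made up most of the sum. Of 5 erythroid markers, 5 were called higher in germ-free and 2 in conventional pregnancy, with sums of 1029 to 2147 CPM in GP and 153 to 1069.7 CPM in GN, and 214 to 1394 CPM in CP and 266 to 495 CPM in CN. All 4 acute-phase genes were called higher in conventional pregnancy, and all were highest in CP replicate 2. Saa1 had 2049 CPM there and 16.4 to 26.1 CPM in the other CP libraries, against 17.5 to 34.2 CPM in CN. These acute-phase calls were not tested without CP replicate 2. Mitochondrially encoded genes took 8.36% to 24.3% of counts in GP and 8.11% to 32.0% in GN, and 5.90% to 15.7% in CP and 8.44% to 23.6% in CN. The part of these shifts in the results was not tested. In bulk tissue, fewer cells of a type and less RNA per cell cannot be told apart. CP replicate 2 stood apart, with a sum of 5596 CPM for 4 acute-phase genes, against at most 374.6 CPM in any library of another group and a CP median of 78.2 CPM. GP replicate 2 had a sum of 99.9 CPM for 4 cholangiocyte markers, against a GP median of 7.86 CPM. GN replicate 2 had the highest sum of adipocyte markers, 62.4 CPM against a GN median of 21.7 CPM. Results on the lipid genes that rest on any of these libraries are given with and without it. Replicate 2 of every group was also left out together, an alternative chosen after seeing the data, because of the low values described with the fatty acid synthesis genes.

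In germ-free mice 6 of the 35 genes were called higher in GP than in GN, and 9 lower. Over all genes tested, the calls were 7.15% higher and 3.6% lower, 10.8% in all. In conventional mice 5 of the 35 were called higher in CP than in CN, and 6 lower, where 5.49% of all genes were called higher and 3.52% lower, 9.02% in all. Of the 8 fatty acid synthesis genes 2 were called lower in germ-free and 1 in conventional mice, and of the 7 triglyceride synthesis genes 3 and 2. Of the 3 lipoprotein assembly genes 3 were called higher in germ-free and 2 in conventional mice. The 8 other apolipoprotein genes split, with 3 higher and 1 lower in germ-free mice and 2 higher and 2 lower in conventional mice. The median log2 fold change of the 35 was -0.32 in germ-free and -0.31 in conventional mice, against -0.02 and 0.04 over all genes. Without overlap between the libraries of the groups, 4 genes were higher and 3 lower in GP (5.66% and 2.81% of all genes), and 2 were higher and 4 lower in CP (2.57% and 2.39%). Together 18 genes were called in at least 1 of the comparisons, which share no library. Of these, 8 were called in both, 53.3% of the 15 calls in germ-free mice and 72.7% of the 11 in conventional mice, and all 8 had the same direction in both. The overlap of calls over all genes was not counted, so these shares are not shown to be particular to the 35 genes. The 4 higher in both were Mttp, Tm6sf2, Apoa4 and Apoc2, and the 4 lower in both were Me1, Srebf1, Dgat1 and Apoa5. With library totals in place of the normalization by the trimmed mean of M-values (TMM), the split was 3 higher and 14 lower in germ-free mice and 3 higher and 7 lower in conventional mice, and DESeq2 gave 5 higher and 11 lower in conventional mice. Over all 15928 genes, library totals called 470 higher and 2126 lower in germ-free mice (1139 and 574 with TMM). In conventional mice they called 551 and 544 (875 and 561 with TMM), and DESeq2 called 1011 and 889 of 15886 genes. Without single libraries the germ-free count of lower genes was 4 (without GP replicate 2), 2 (GP replicate 4) and 5 (GP replicate 5). Over all genes those fits called 445, 441 and 392 lower. The conventional count of higher genes was 3 without CP replicate 3 or CN replicate 5 and 8 without CN replicate 6, and that of lower genes was 3 without CP replicate 2 or CN replicate 5 and 10 without GN replicate 2. Over all genes the higher calls were 809, 659 and 1134 in those fits, and the lower calls 377, 399 and 621.

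**Figure D1:**
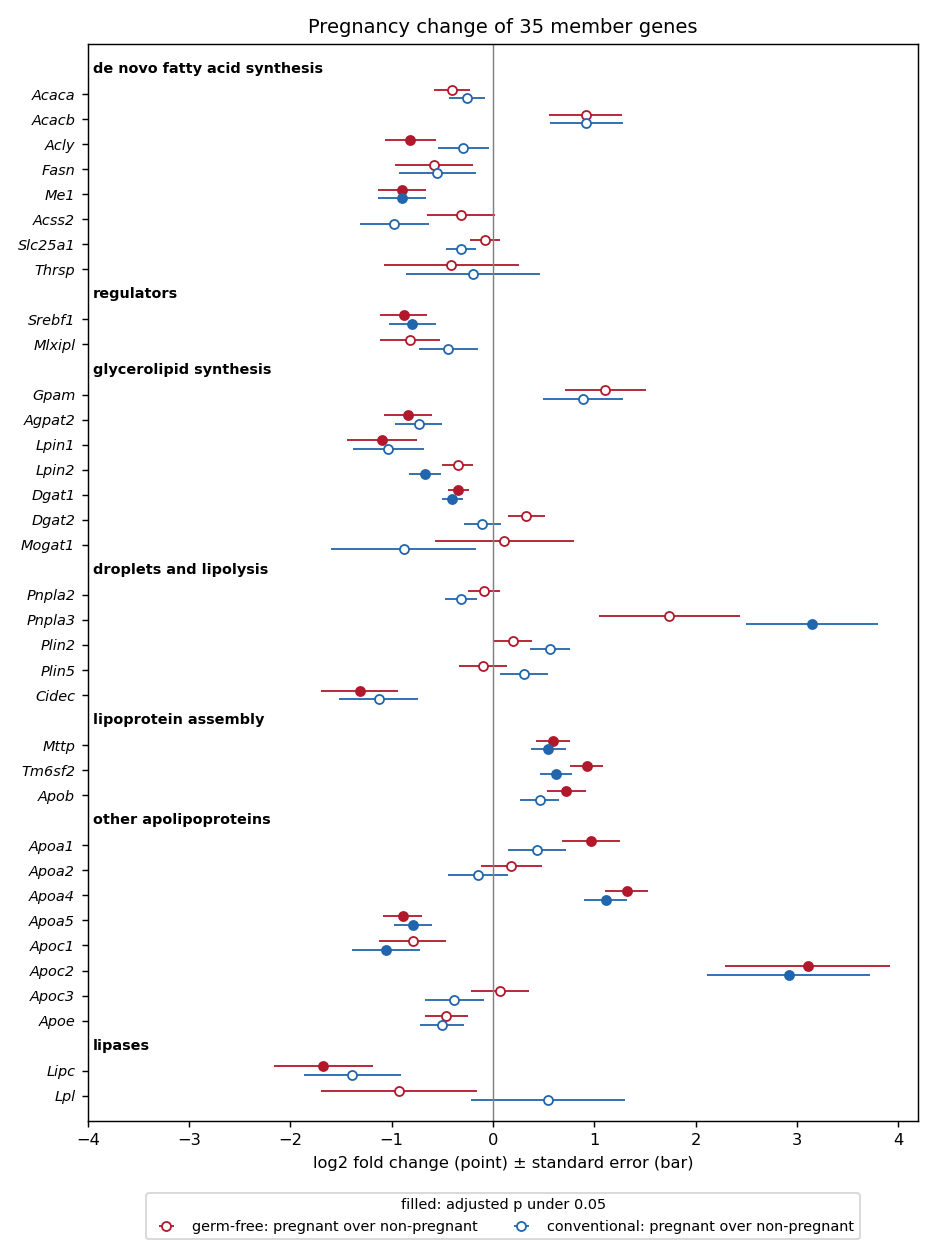
Log2 fold change (horizontal axis) with its standard error for pregnant over non-pregnant mice, for all 35 genes grouped by role, in germ-free (red) and conventional (blue) mice. Filled points mark an adjusted p under 0.05, and the called genes of lipoprotein assembly lie right of 0 and those of fatty acid and glycerolipid synthesis left of 0.

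The regulators and the fatty acid synthesis genes held no gene called higher in pregnancy. Of the 8 synthesis genes, 2 were called lower in germ-free mice (Acly and Me1) and 1 in conventional mice (Me1), while Srebf1 was called lower in both. Srebf1 (chr11:60199089-60222581, minus strand) encodes the factor that activates the lipogenic enzymes after insulin. It had 147, 89.5, 135, 68.0 and 101 CPM in GP replicates 1 to 5, against a lowest of 140.1, a median of 185 and a highest of 273 CPM in GN. It had 142, 71.4, 150.4, 154 and 184 CPM in CP replicates 1 to 5, against a lowest of 187, a median of 246 and a highest of 308 CPM in CN. Every CP library lay below every CN library, while GP replicate 1 lay inside the GN range. Srebf1 fell in germ-free pregnancy (log2 fold change -0.88 ± 0.23 SE, 1.84-fold lower, adjusted p = 0.0146) and in conventional pregnancy (log2 fold change -0.80 ± 0.23 SE, 1.74-fold lower, adjusted p = 0.0310). The conventional call was lost without CP replicate 2 (-0.63, adjusted p = 0.0855), CN replicate 3 (-0.78, 0.0552) or CN replicate 5 (-0.72, 0.0758), and the germ-free call without GP replicate 4 (-0.75, adjusted p = 0.0505). Mlxipl, the carbohydrate-responsive factor, averaged 84.3 ± 39.9 CPM in GP and 149 ± 20.8 CPM in GN (SD, n = 5 and 6), and 118 ± 49.4 CPM in CP and 160.2 ± 62.4 CPM in CN. It was called in neither comparison (germ-free log2 fold change -0.82 ± 0.29, adjusted p = 0.0782), but was called in germ-free mice without GP replicate 1 (-1.10, adjusted p = 0.0162). DESeq2 also called it lower there (-0.84, adjusted p = 0.0342), as did edgeR with only the 2 germ-free groups (-0.83, 0.0379) or with library totals (-1.14, 0.0208).

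Me1 (chr9:86581371-86695953, minus strand) encodes the cytosolic malic enzyme that supplies NADPH for fatty acid synthesis. It had 48.7, 43.3, 58.9, 51.3 and 52.8 CPM in GP replicates 1 to 5, against a lowest of 43.7, a median of 98.2 and a highest of 138 CPM in GN. In conventional mice it had 118, 57.5, 60.1, 60.4 and 76.6 CPM in CP replicates 1 to 5, against a lowest of 87.6, a median of 139 and a highest of 204 CPM in CN. The GP libraries were close together, and their overlap with GN came through GN replicate 2, the lowest of its group, while CP replicate 1 alone of the CP libraries lay inside the CN range. Me1 fell in germ-free mice (log2 fold change -0.90 ± 0.24 SE, 1.87-fold lower, adjusted p = 0.0146) and in conventional mice (log2 fold change -0.90 ± 0.24 SE, 1.86-fold lower, adjusted p = 0.0177). The conventional call was lost without CP replicate 2 (-0.82, adjusted p = 0.0531) or CN replicate 5 (-0.76, 0.0526).

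Acly, which splits citrate to cytosolic acetyl-CoA, averaged 73.1 ± 17.3 CPM in GP and 129 ± 50.2 CPM in GN, and 103 ± 22.6 CPM in CP and 126 ± 43.0 CPM in CN. It fell in germ-free mice (log2 fold change -0.82 ± 0.25 SE, 1.76-fold lower, adjusted p = 0.0399), a call that was lost in 8 of the 22 fits without 1 library, with the highest adjusted p of 0.115 without GN replicate 5. The 8 were those without GP replicate 1, 2, 4 or 5 or GN replicate 1, 3, 5 or 6, with log2 fold changes of -0.86 to -0.60. Fasn, the fatty acid synthase, was not called and averaged 201 ± 96.5 CPM in GP and 301 ± 177 CPM in GN, and 251 ± 63.8 CPM in CP and 367 ± 102 CPM in CN. The acetyl-CoA carboxylases, which make malonyl-CoA, stood on opposite sides of 0 without a call. Acaca, whose product feeds synthesis, averaged 44.6 ± 10.1 CPM in GP and 58.9 ± 15.5 CPM in GN, and 51.5 ± 4.49 CPM in CP and 61.6 ± 10.5 CPM in CN. Acacb, the mitochondrial isoform whose product restrains fatty acid oxidation, averaged 77.4 ± 34.0 CPM in GP and 41.0 ± 26.1 CPM in GN, and 107 ± 17.7 CPM in CP and 56.2 ± 16.5 CPM in CN. Its log2 fold change was 0.92 ± 0.36, adjusted p = 0.114 in germ-free mice and 0.92 ± 0.36, adjusted p = 0.119 in conventional mice, and it was called without GN replicate 5 in germ-free mice (1.28, adjusted p = 0.0171) and without GN replicate 2 in conventional mice (0.92, 0.0434). Acaca was called lower in germ-free mice without GN replicate 2 (-0.51, adjusted p = 0.0461). Acss2, which makes acetyl-CoA from acetate, averaged 56.6 ± 11.6 CPM in GP and 70.5 ± 36.0 CPM in GN, and 79.2 ± 39.1 CPM in CP and 156 ± 60.7 CPM in CN. Its conventional log2 fold change was -0.97 ± 0.34, adjusted p = 0.0750, and it was called without CP replicate 1 (-1.31, 0.0155) or GN replicate 2 (-0.97, 0.0336). Slc25a1, the mitochondrial citrate carrier, and Thrsp, a lipogenic activator protein, were not called either. Slc25a1 averaged 109.8 ± 16.1 CPM in GP and 116 ± 23.6 CPM in GN, and 122 ± 17.6 CPM in CP and 151 ± 17.4 CPM in CN. Thrsp had the wider spread, with 91.6 to 901 CPM in GP and 27.3 to 879 CPM in GN, and 129 to 657 CPM in CP and 188 to 1072 CPM in CN.

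Within each group the 8 synthesis genes tended to be low in the same library. GP replicate 2 was the lowest of its group in 7 of the 8 genes, GN replicate 2 in all 8, CP replicate 2 in 6 and CN replicate 2 in 5. GN replicate 5 was the highest of its group in 7. Summed over the 8 genes, the level was 363 CPM in GN replicate 2 and 1966 CPM in GN replicate 5. The labels give the number 2 no meaning of its own. With replicate 2 of all 4 groups left out, 6 of the 35 genes were called higher and 6 lower in germ-free pregnancy, and 4 higher and 4 lower in conventional pregnancy. Over all 15826 genes, 1089 were called higher and 605 lower in germ-free pregnancy, and 611 and 417 in conventional pregnancy. The calls lost were those of Dgat1, Cidec, Apoa1 and Lipc in germ-free mice and of Srebf1, Mttp, Tm6sf2 and Apoc1 in conventional mice, and Acacb was gained in both (log2 fold change 0.90, adjusted p = 0.0414 in germ-free mice and 0.93, 0.0480 in conventional mice).

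**Figure D2:**
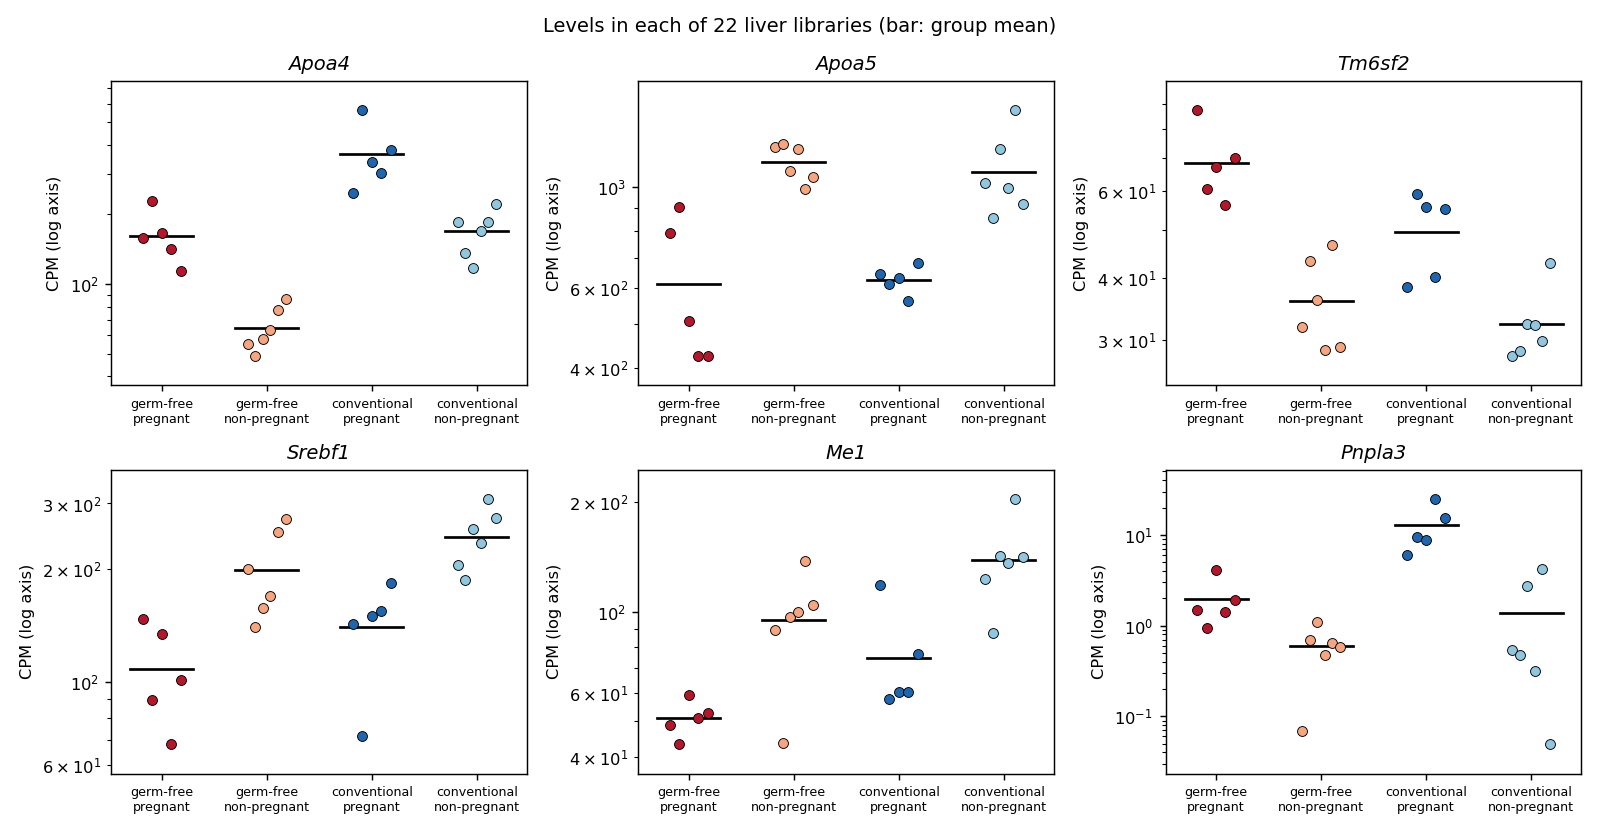
Level in CPM on a log axis for Apoa4, Apoa5, Tm6sf2, Srebf1, Me1 and Pnpla3 in each of the 22 libraries, with points for mice, bars for group means and groups ordered GP, GN, CP, CN. Apoa4 is lowest in GN, with libraries up to 86.4 CPM, and highest in CP, with libraries from 248 CPM, while GP and CN overlap between them, and Apoa5 is lower in all pregnant than in all non-pregnant libraries of the same microbiota status.

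Triglyceride synthesis genes were called in the lower direction only with edgeR, while DESeq2 also called Gpam higher in germ-free mice (1.09, adjusted p = 0.0439). Of the 7, 3 were called lower in germ-free mice (Agpat2, Lpin1 and Dgat1) and 2 in conventional mice (Lpin2 and Dgat1). Dgat1 (chr15:76502015-76511953, minus strand) encodes an enzyme of the last step of triglyceride synthesis. It had 12.8, 13.9, 14.8, 12.6 and 15.2 CPM in GP replicates 1 to 5, against a lowest of 16.1, a median of 17.7 and a highest of 18.6 CPM in GN. It had 13.2, 11.6, 15.1, 12.6 and 12.4 CPM in CP replicates 1 to 5, against a lowest of 14.1, a median of 18.0 and a highest of 19.5 CPM in CN. The germ-free groups did not overlap, and CP replicate 3 alone of the CP libraries reached into the CN range. Dgat1 fell by a small amount in germ-free mice (log2 fold change -0.34 ± 0.10 SE, 1.27-fold lower, adjusted p = 0.0316) and in conventional mice (log2 fold change -0.40 ± 0.10 SE, 1.32-fold lower, adjusted p = 0.0153). The germ-free call was lost in 7 of 22 fits without 1 library (GP replicate 1, 2 or 4, or GN replicate 1, 3, 4 or 6), with log2 fold changes of -0.35 to -0.31 and adjusted p values of up to 0.0911.

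Lpin2 (chr17:71182560-71249817, plus strand) encodes a phosphatidate phosphatase, the step before diacylglycerol. In CP replicates 1 to 5 it had 98.7, 57.6, 105, 110.1 and 91.1 CPM, against a lowest of 127, a median of 153 and a highest of 164 CPM in CN. In GP replicates 1 to 5 it had 162, 124, 105, 103 and 107 CPM, against a lowest of 122, a median of 160.5 and a highest of 172 CPM in GN. All CP libraries lay below all CN libraries, and GP replicates 1 and 2 lay inside the GN range. Lpin2 fell in conventional mice (log2 fold change -0.67 ± 0.16 SE, 1.59-fold lower, adjusted p = 0.00794) and was not called in germ-free mice (-0.35 ± 0.16, adjusted p = 0.166), except without GP replicate 1 (-0.48, adjusted p = 0.0444). Its relative Lpin1 averaged 70.2 ± 11.7 CPM in GP and 150.1 ± 85.2 CPM in GN, and 39.5 ± 15.2 CPM in CP and 80.8 ± 31.3 CPM in CN. It fell in germ-free mice (log2 fold change -1.10 ± 0.35 SE, 2.14-fold lower, adjusted p = 0.0438) and had a conventional log2 fold change of -1.03 ± 0.35, adjusted p = 0.0648. The germ-free call was lost in 10 of the 22 fits without 1 library, with log2 fold changes of -1.14 to -0.78. These were the fits without GP replicate 2, 3, 4 or 5, GN replicate 1, 5 or 6, CP replicate 1, or CN replicate 1 or 2, and the highest adjusted p was 0.148, without GN replicate 6. The conventional change passed without CN replicate 3 (-1.16, adjusted p = 0.0478), GN replicate 2 (-1.03, 0.0357) or GN replicate 6 (-1.03, 0.0396).

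Agpat2, which adds the second fatty acid, averaged 46.8 ± 14.9 CPM in GP and 83.7 ± 20.3 CPM in GN, and 58.9 ± 24.0 CPM in CP and 98.0 ± 18.3 CPM in CN. It fell in germ-free mice (log2 fold change -0.84 ± 0.24 SE, 1.79-fold lower, adjusted p = 0.0211), while its conventional log2 fold change was -0.73 ± 0.23, adjusted p = 0.0507, just above the threshold of 0.05. The germ-free call was lost without GP replicate 3 (-0.76, adjusted p = 0.0696), GP replicate 4 (-0.77, 0.0621), GP replicate 5 (-0.82, 0.0542) or GN replicate 2 (-0.72, 0.0534), and the conventional change passed without CP replicate 1 (-0.99, 0.00528), GN replicate 2 (-0.73, 0.0412), GP replicate 2 (-0.74, 0.0346) or GP replicate 5 (-0.76, 0.0499). Gpam, the mitochondrial enzyme of the first step, stood on the other side of 0, with 36.1 ± 19.8 CPM in GP and 16.8 ± 7.63 CPM in GN, and 45.3 ± 15.8 CPM in CP and 24.5 ± 13.9 CPM in CN. Its log2 fold change was 1.11 ± 0.40, adjusted p = 0.0809 in germ-free and 0.89 ± 0.40, adjusted p = 0.184 in conventional mice, and it passed without GP replicate 1 in germ-free mice (1.31, adjusted p = 0.0303) and without CN replicate 6 in conventional mice (1.23, 0.0423). Dgat2, the second acyltransferase of the last step, averaged 759 ± 67.6 CPM in GP and 604 ± 127 CPM in GN, and 549 ± 170.2 CPM in CP and 591 ± 65.7 CPM in CN, with no call. Mogat1, a monoacylglycerol acyltransferase, had under 1 CPM in most libraries (0.139 to 1.01 CPM in GP and 0.186 to 0.639 CPM in GN, 0 to 0.415 CPM in CP and 0.0445 to 0.635 CPM in CN), and part of its exons overlap those of BC035947, which held 86.1% of the counts of both genes.

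Among the 5 droplet and lipolysis genes, Pnpla3 rose in conventional pregnancy and Cidec fell in germ-free pregnancy. Pnpla3 (chr15:84167837-84187236, plus strand) encodes a droplet-bound protein whose human variant is known for its link to fatty liver. It had 5.93, 9.37, 8.73, 24.7 and 15.5 CPM in CP replicates 1 to 5, against a lowest of 0.0492, a median of 0.506 and a highest of 4.26 CPM in CN. In GP replicates 1 to 5 it had 1.47, 0.934, 4.14, 1.40 and 1.92 CPM, against a lowest of 0.0684, a median of 0.618 and a highest of 1.10 CPM in GN. Every CP library was above every library of the other 3 groups, GP replicate 2 lay inside the GN range, and the lowest CN and GN libraries were near 0. Pnpla3 rose in conventional mice (log2 fold change 3.15 ± 0.65 SE, 8.87-fold higher, adjusted p = 0.00274) and was not called in germ-free mice (log2 fold change 1.74 ± 0.70, adjusted p = 0.119). With only the 2 germ-free groups in the fit it was called higher there too (1.72, adjusted p = 0.0379). The difference between the germ-free and the conventional change was -1.41 ± 0.95 on the log2 scale and was not called (adjusted p = 0.887).

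Cidec, a protein that fuses lipid droplets, averaged 1.52 ± 1.03 CPM in GP and 3.81 ± 2.05 CPM in GN, and 1.06 ± 0.216 CPM in CP and 2.31 ± 0.626 CPM in CN. It fell in germ-free mice (log2 fold change -1.32 ± 0.38 SE, 2.49-fold lower, adjusted p = 0.0261), and its conventional log2 fold change was -1.13 ± 0.39, adjusted p = 0.0699 although the CP and CN libraries did not overlap. The germ-free call was lost without GN replicate 2 (-0.98, adjusted p = 0.0843), GP replicate 1 (-1.25, 0.0504), GP replicate 2 (-1.10, 0.0684) or GP replicate 4 (-1.15, 0.0776). The conventional change passed without CN replicate 6 (-1.24, adjusted p = 0.0458), GN replicate 2 (-1.13, 0.0427), GP replicate 2 (-1.13, 0.0473) or GP replicate 5 (-1.15, 0.0439). Fat cells also express Cidec, and GN replicate 2 held the highest GN value at 7.76 CPM. The sum of the adipocyte list (7 genes, 6 tested) was 9.85 to 32.7 CPM in GP and 8.41 to 62.4 CPM in GN, and 7.06 to 38.8 CPM in CP and 4.53 to 22.7 CPM in CN. None of its genes was called in any comparison, and Adipoq was at 0 in 6 of the 22 libraries. The part of fat cells in the Cidec values was not tested. Plin2, the main droplet coat protein of liver, averaged 257 ± 35.2 CPM in GP and 224 ± 62.3 CPM in GN, and 337 ± 80.8 CPM in CP and 228 ± 47.4 CPM in CN. Its conventional log2 fold change of 0.56 ± 0.19, adjusted p = 0.0748 passed without CN replicate 6 (0.64, adjusted p = 0.0416) or GN replicate 2 (0.56, 0.0440). Plin5, which ties droplets to mitochondria, and Pnpla2, the main triglyceride lipase of cells, were called in neither comparison. Plin5 averaged 23.7 ± 7.55 CPM in GP and 25.4 ± 9.98 CPM in GN, and 21.7 ± 4.47 CPM in CP and 17.5 ± 4.73 CPM in CN. Pnpla2 averaged 63.8 ± 8.75 CPM in GP and 67.9 ± 15.8 CPM in GN, and 53.0 ± 11.4 CPM in CP and 65.8 ± 6.50 CPM in CN.

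All 3 genes of lipoprotein assembly were called higher in germ-free pregnancy, and Mttp and Tm6sf2 also in conventional pregnancy. Tm6sf2 (chr8:70072924-70080066, plus strand) encodes a membrane protein of the endoplasmic reticulum and Golgi needed to load VLDL with lipid. It had 87.2, 60.5, 66.9, 56.2 and 70.0 CPM in GP replicates 1 to 5, against a lowest of 28.6, a median of 34.0 and a highest of 46.6 CPM in GN. It had 38.3, 59.0, 55.5, 40.1 and 55.0 CPM in CP replicates 1 to 5, against a lowest of 27.9, a median of 31.0 and a highest of 42.9 CPM in CN. All GP libraries exceeded all GN libraries, whereas CP replicates 1 and 4 stayed below CN replicate 6, the highest of its group. Tm6sf2 rose in germ-free mice (log2 fold change 0.92 ± 0.16 SE, 1.90-fold higher, adjusted p = 0.000366) and in conventional mice (log2 fold change 0.62 ± 0.16 SE, 1.54-fold higher, adjusted p = 0.0155), and both calls held in each fit without 1 library. Without replicate 2 of all groups the conventional call was lost (0.52, adjusted p = 0.0913).

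Mttp, the transfer protein that lipidates apolipoprotein B, averaged 266 ± 43.8 CPM in GP and 176 ± 36.1 CPM in GN, and 259 ± 34.9 CPM in CP and 177 ± 38.4 CPM in CN. It rose in germ-free mice (log2 fold change 0.59 ± 0.17 SE, 1.51-fold higher, adjusted p = 0.0230), where the groups did not overlap, and in conventional mice (log2 fold change 0.55 ± 0.17 SE, 1.46-fold higher, adjusted p = 0.0431), where they did. The germ-free call was lost without GP replicate 3 (0.52, adjusted p = 0.0809), GP replicate 4 (0.58, 0.0511), GP replicate 5 (0.55, 0.0764) or GN replicate 1 (0.56, 0.0532). The conventional call was lost in 13 of the 22 fits without 1 library, namely CP replicates 2 to 5, CN replicates 1 to 5, GP replicates 4 and 5, and GN replicates 1 and 3, with log2 fold changes of 0.47 to 0.58 and adjusted p values of up to 0.109. Apob, the structural protein of VLDL, averaged 3197 ± 709 CPM in GP and 1939 ± 291 CPM in GN, and 2777 ± 425 CPM in CP and 2018 ± 540.0 CPM in CN. It rose in germ-free mice (log2 fold change 0.72 ± 0.19 SE, 1.65-fold higher, adjusted p = 0.0153), a call lost without GP replicate 5 (0.63, adjusted p = 0.0634). In conventional mice its log2 fold change was 0.46 ± 0.19, adjusted p = 0.147, and it passed without CN replicate 6 (0.62, 0.0279).

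Of the other apolipoprotein genes, Apoa1, Apoc3, Apoa4 and Apoa5 lie in this order within 43.3 kb on chromosome 9 (chr9:46228580-46271919, GRCm38), and they did not move together. Apoa4 was called higher in both pregnancy comparisons, Apoa5 lower in both and Apoa1 higher in germ-free mice alone, while Apoc3 was called in neither. RefSeq promoter windows (250 bases before to 50 after a start, build GRCm38.p6) of the 3 genes with a call are shown because neighbouring genes differed in direction. Capitals mark the E-box CACGTG, a sequence that basic helix-loop-helix factors bind, which was found once.
Apoa1, chr9:46228380-46228679, plus strand: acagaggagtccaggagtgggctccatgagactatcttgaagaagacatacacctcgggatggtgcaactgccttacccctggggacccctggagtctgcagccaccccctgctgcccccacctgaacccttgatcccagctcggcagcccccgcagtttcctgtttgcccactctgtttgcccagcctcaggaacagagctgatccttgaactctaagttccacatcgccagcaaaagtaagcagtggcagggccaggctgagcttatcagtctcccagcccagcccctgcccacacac
Apoa4, chr9:46240594-46240893, plus strand: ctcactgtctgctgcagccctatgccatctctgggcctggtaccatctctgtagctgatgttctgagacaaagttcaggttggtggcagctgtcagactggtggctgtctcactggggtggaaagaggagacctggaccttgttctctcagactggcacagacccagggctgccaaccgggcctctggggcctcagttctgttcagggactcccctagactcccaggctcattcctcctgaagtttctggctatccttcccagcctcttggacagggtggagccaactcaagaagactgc
Apoa5, chr9:46268383-46268682, plus strand: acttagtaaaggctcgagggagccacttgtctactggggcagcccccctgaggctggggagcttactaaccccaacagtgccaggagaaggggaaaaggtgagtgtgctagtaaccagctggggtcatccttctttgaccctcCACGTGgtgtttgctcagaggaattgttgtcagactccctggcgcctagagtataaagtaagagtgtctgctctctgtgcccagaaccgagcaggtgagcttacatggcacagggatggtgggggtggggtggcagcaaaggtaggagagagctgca
In the 43 windows of the 29 genes that had an entry, 4 motifs were searched on both strands. The E-box CACGTG stood in 6 of the 43 windows, those of 5 genes (Apoa5, Lpin2, Mlxipl, Plin2 and Slc25a1), and in 7.15% of all 32851 windows. The Apoa5 windows starting at 46268358 and 46268383 overlap and hold the same E-box, which was counted in both. The SREBP site TCACNCCAC stood in 1 of the 43 windows (Mlxipl) and in 1.24% of all windows. The NF-Y box CCAAT stood in 20 of the 43 windows, those of 17 genes, and in 37.4% of all windows. The direct repeat DR1 of nuclear receptors (AGGTCA, any base, AGGTCA) stood in 0 of the 43 windows and in 0.0396% of all. None of the 4 motifs was found in the Apoa1 and Apoa4 windows shown.

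Apoa4 (ENSMUSG00000032080.6, chr9:46240696-46243459, plus strand) encodes a lipoprotein component made by the intestine and, in mice, by the liver. It had 158, 228, 166, 142 and 114 CPM in GP replicates 1 to 5, against a lowest of 49.1, a median of 60.6 and a highest of 86.4 CPM in GN. It had 248, 562, 336, 303 and 380.4 CPM in CP replicates 1 to 5, against a lowest of 117, a median of 177 and a highest of 221 CPM in CN. Pregnant and non-pregnant libraries did not overlap in either microbiota status. Apoa4 rose in germ-free mice (log2 fold change 1.32 ± 0.21 SE, 2.49-fold higher, adjusted p = 0.000155) and in conventional mice (log2 fold change 1.11 ± 0.21 SE, 2.16-fold higher, adjusted p = 0.00128). The calls held in each of the 22 fits without 1 library, and CP replicate 2, the library with high acute-phase genes, was the highest of all at 562 CPM.

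Apoa5 (chr9:46268633-46271919, plus strand), a liver protein that helps lipoprotein lipase clear plasma triglyceride, moved the other way. It had 793, 904, 509, 426 and 427 CPM in GP replicates 1 to 5, against a lowest of 989.8, a median of 1151 and a highest of 1243 CPM in GN. It had 643, 611, 630.2, 561 and 679.7 CPM in CP replicates 1 to 5, against a lowest of 856, a median of 1008 and a highest of 1475 CPM in CN. The pregnant libraries lay below the non-pregnant ones without overlap in both, and GP was spread more widely than CP. Apoa5 fell in germ-free mice (log2 fold change -0.89 ± 0.19 SE, 1.86-fold lower, adjusted p = 0.00294) and in conventional mice (log2 fold change -0.79 ± 0.19 SE, 1.73-fold lower, adjusted p = 0.00998), again in each fit without 1 library. Apoa1, the main protein of high density lipoprotein, averaged 15676 ± 5549 CPM in GP and 8022 ± 1803 CPM in GN, and 11440.0 ± 4871 CPM in CP and 8466 ± 2303 CPM in CN. It rose in germ-free mice (log2 fold change 0.97 ± 0.29 SE, 1.95-fold higher, adjusted p = 0.0302), a call lost without GP replicate 2 or 3 or GN replicate 1, 2, 4 or 5 (log2 fold changes 0.76 to 0.97, adjusted p up to 0.112). Apoc3, an inhibitor of lipoprotein lipase, averaged 1816 ± 655 CPM in GP and 1730.3 ± 395 CPM in GN, and 1801 ± 793 CPM in CP and 2345 ± 822 CPM in CN. Apoa2, the second protein of high density lipoprotein, had no call either, with 8568 ± 3094 CPM in GP and 7555 ± 1538 CPM in GN, and 7229 ± 3767 CPM in CP and 8020.4 ± 2253 CPM in CN.

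A second group, Apoc2, Apoc1 and Apoe, lies within 27.6 kb on chromosome 7 (chr7:19671579-19699188) and also held genes of opposite sign. Apoc2 (chr7:19671579-19677941, minus strand) encodes the cofactor that activates lipoprotein lipase. It had 585, 875, 536, 509 and 429 CPM in GP replicates 1 to 5, against a lowest of 5.51, a median of 69.4 and a highest of 165 CPM in GN. It had 124, 415, 845, 21.5 and 512 CPM in CP replicates 1 to 5, against a lowest of 5.84, a median of 66.3 and a highest of 84.2 CPM in CN. All GP libraries were above all GN libraries, while CP replicate 4 lay inside the CN range. Apoc2 rose in germ-free mice (log2 fold change 3.10 ± 0.81 SE, 8.60-fold higher, adjusted p = 0.0138) and in conventional mice (log2 fold change 2.92 ± 0.81 SE, 7.56-fold higher, adjusted p = 0.0237). The conventional call was lost without CP replicate 3 (2.40, adjusted p = 0.0700) or CN replicate 5 (2.69, 0.0507).

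The Apoc2 values depend on how counts were divided with Gm44805, a gene model on the same strand that shares 646 bases, 79.5% of the Apoc2 exon length. In CP replicate 4, CN replicates 4 and 5 and GN replicates 1 and 6, Apoc2 held 2.89% to 5.12% of the counts of both genes together. In the other 17 libraries it held 55.7% to 96.6%. With both summed, the level was 622, 906, 561, 539 and 449.5 CPM in GP replicates 1 to 5, against 96.0 to 269 CPM in GN, and 145, 437, 890.1, 612 and 535 CPM in CP replicates 1 to 5, against 101 to 210.2 CPM in CN. The sum separated the germ-free groups, and CP replicate 1 alone of the CP libraries lay inside the CN range. The sum, an alternative chosen after seeing the data, was 3.78-fold higher in germ-free pregnancy (log2 fold change 1.92 ± 0.33, adjusted p = 0.000365 with edgeR) and 3.66-fold higher in conventional pregnancy (1.87 ± 0.33, adjusted p = 0.00066). The direction held, at less than the fold of Apoc2 alone.

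**Figure D3:**
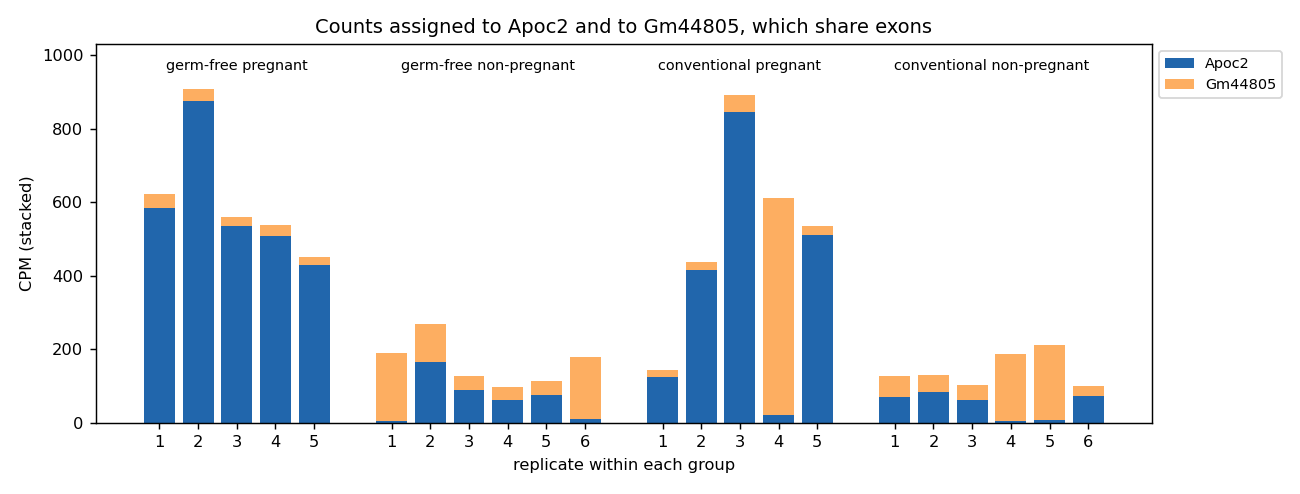
Stacked CPM of Apoc2 (blue) and Gm44805 (orange), which share exons, in each library, with groups ordered GP, GN, CP, CN. In 5 libraries nearly all of the sum was assigned to Gm44805, and the sum is higher in 5 of 5 GP libraries than in any GN library.

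Apoc1, which slows the uptake of remnant lipoproteins, averaged 1880.2 ± 808 CPM in GP and 3262 ± 948 CPM in GN, and 1611 ± 715 CPM in CP and 3347 ± 1273 CPM in CN. It fell in conventional mice (log2 fold change -1.06 ± 0.33 SE, 2.08-fold lower, adjusted p = 0.0487) and had a germ-free log2 fold change of -0.79 ± 0.33, adjusted p = 0.135. The conventional call lay at the threshold and was lost in 15 of the 22 fits without 1 library (CP replicates 1, 2, 4 and 5, CN replicates 1 to 5, GP replicates 3 and 5, and GN replicates 1, 3, 5 and 6), with log2 fold changes of -1.12 to -0.88 and adjusted p values of up to 0.126. Apoe, the ligand by which the liver takes up remnants, had no call in the fit of all libraries with TMM. DESeq2 called it lower in conventional mice (-0.53, adjusted p = 0.0478). With library totals edgeR called it lower in conventional (-0.62, adjusted p = 0.0351) and in germ-free mice (-0.79, 0.00453). It averaged 17566 ± 4978 CPM in GP and 24159 ± 3152 CPM in GN, and 17441 ± 5171 CPM in CP and 24784 ± 2050.1 CPM in CN, with log2 fold changes of -0.46 ± 0.22, adjusted p = 0.190 in germ-free and -0.51 ± 0.22, adjusted p = 0.157 in conventional mice.

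The 2 lipases were examined library by library because single mice set their group values, a choice made after their values were seen. Lipc, the hepatic lipase that acts on remnants and high density lipoprotein, had 84.5, 17.7, 31.7, 34.4 and 46.0 CPM in GP replicates 1 to 5, against a lowest of 111, a median of 135 and a highest of 159.8 CPM in GN. It had 208, 31.6, 21.9, 33.1 and 16.5 CPM in CP replicates 1 to 5, against a lowest of 143, a median of 169 and a highest of 177 CPM in CN. GP and GN did not overlap, and 4 of 5 CP libraries lay far below all CN libraries while CP replicate 1 lay above them. Lipc fell in germ-free mice (log2 fold change -1.67 ± 0.49 SE, 3.19-fold lower, adjusted p = 0.0262), a call lost without GP replicate 2 (-1.48, adjusted p = 0.0743), 3 (-1.58, 0.0757), 4 (-1.60, 0.0658) or 5 (-1.72, 0.0541). In conventional mice it was not called with all libraries (log2 fold change -1.39 ± 0.48, adjusted p = 0.0726), and without CP replicate 1 it was called at -2.66 (adjusted p = 2.55e-06). With age as a covariate Lipc was also called lower in conventional mice (-1.56, adjusted p = 0.0351). DESeq2 returned no adjusted p for Lipc in germ-free or conventional pregnancy, so its count of 0 called lipases says nothing on Lipc. Lpl, the lipoprotein lipase best known from muscle and fat, had 33.2, 237, 42.2, 48.0 and 63.3 CPM in GP replicates 1 to 5, against a lowest of 32.8, a median of 50.2 and a highest of 712 CPM in GN. It had 40.9, 134, 15.9, 13.9 and 48.8 CPM in CP replicates 1 to 5, against a lowest of 10.6, a median of 32.3 and a highest of 69.9 CPM in CN. The groups overlapped, replicate 2 was the highest library in each of the 4 groups, and Lpl was called in no comparison. The adipocyte list reached 62.4 CPM in GN replicate 2, and its part in the Lpl values was not tested.

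**Figure D4:**
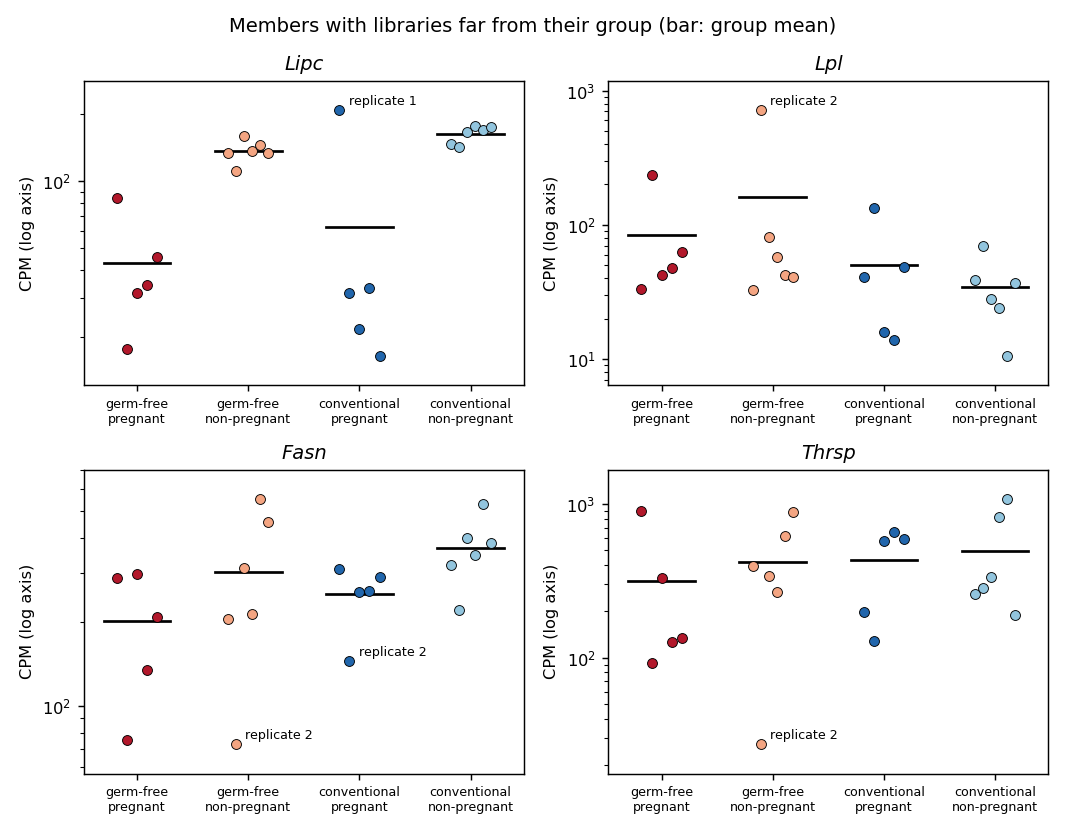
Level in CPM on a log axis for Lipc, Lpl, Fasn and Thrsp in each library, with bars for group means, groups ordered GP, GN, CP, CN and the libraries far from their group labelled. CP replicate 1 had 208 CPM of Lipc beside 16.5 to 33.1 CPM in the other CP libraries, and GN replicate 2 had 712 CPM of Lpl.

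Some of these calls also ended under another setting of the fit, and other calls were gained. In germ-free pregnancy the calls of Apob, Mttp and Apoa1 were lost with library totals (log2 fold change 0.43, 0.30 and 0.63) and without the filter on low counts (0.68, 0.55 and 0.92), where Dgat1 was lost too (-0.39). Acly was lost with age as a covariate (-0.79, adjusted p = 0.0616), Cidec with age (-1.24, 0.0512) or with only the 2 groups in the fit (-1.33, 0.0636). Gained as lower in germ-free pregnancy with library totals were Acaca, Apoc1 and Lpin2 (-0.72, -1.15 and -0.68, adjusted p up to 0.0381). In conventional pregnancy Mttp was lost with library totals, without the filter, with RLE scaling and with only the 2 groups (0.47 to 0.53, adjusted p up to 0.168), Dgat1 with library totals or only the 2 groups (-0.46 and -0.42, up to 0.0595) and Tm6sf2 with library totals (0.57, 0.0897). Apoc1 was lost with age (-1.06, 0.0557) or with only the 2 groups (-1.08, 0.0904), and Apoc2 with only the 2 groups (2.90, 0.0567). Agpat2 was gained as lower with DESeq2, RLE scaling, age, no filter or mitochondrial genes left out (-0.76 each, adjusted p up to 0.0419). Lpin1 was gained as lower with DESeq2 (-1.06, 0.0184), library totals or no filter, and Cidec with DESeq2 (-1.16, 0.0277) or only the 2 groups. DESeq2 called Acss2 lower (-1.01, 0.0231), and Acacb was higher with only the 2 groups (0.90, 0.0136). Apoa4, Apoa5, Me1 and Srebf1 kept their calls in both comparisons under each setting named here, as did Pnpla3 and Lpin2 in conventional mice.

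Germ-free status went with a change of 1 of the 35 genes. In pregnant mice 0 genes were called higher and 1 lower in GP than in CP, where 0.0816% of all genes were called higher and 0.0502% lower. In non-pregnant mice 0 were called higher and 1 lower in GN than in CN, against 0.0879% and 0.0691% of all genes. Without overlap between the libraries, 1 gene was higher and 2 lower in GP than in CP (0.496% and 0.603% of all genes), and 0 were higher and 1 lower in GN than in CN (0.364% and 0.433%). The called gene was Apoa4 in both, and these comparisons share no library. At an unadjusted p under 0.05, edgeR had 4 higher and 3 lower genes in pregnant mice and 3 higher and 4 lower in non-pregnant mice. Over all 15928 genes it had 626 higher and 1046 lower in pregnant mice, and 434 and 523 in non-pregnant mice. DESeq2 called 0 higher and 1 lower in pregnant mice, and 0 higher and 2 lower in non-pregnant mice, where Acss2 was the second gene. Of 17905 genes, DESeq2 called 63 higher and 44 lower in pregnant mice, and 55 and 59 in non-pregnant mice.

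In the Apoa4 values given above, every GP library lay below every CP library, and every GN library below every CN library. Apoa4 averaged 162 ± 42.3 CPM in GP and 366 ± 119.9 CPM in CP, and 64.8 ± 14.3 CPM in GN and 169 ± 37.5 CPM in CN. It fell in germ-free pregnant mice (log2 fold change -1.18 ± 0.22 SE, 2.26-fold lower, adjusted p = 0.0265) and in germ-free non-pregnant mice (log2 fold change -1.39 ± 0.21 SE, 2.61-fold lower, adjusted p = 0.00180). The call in pregnant mice was lost without GP replicate 1 (-1.17, adjusted p = 0.0569), 3 (-1.19, 0.0692), 4 (-1.14, 0.0878) or 5 (-1.07, 0.0970) or CP replicate 2 (-0.97, 0.0805), 4 (-1.24, 0.0535) or 5 (-1.16, 0.0646), and with only these groups in the fit (adjusted p = 0.235). The call in non-pregnant mice held in all 22 fits. Because age differed with microbiota status, the part of age in this difference cannot be told apart.

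**Figure D5:**
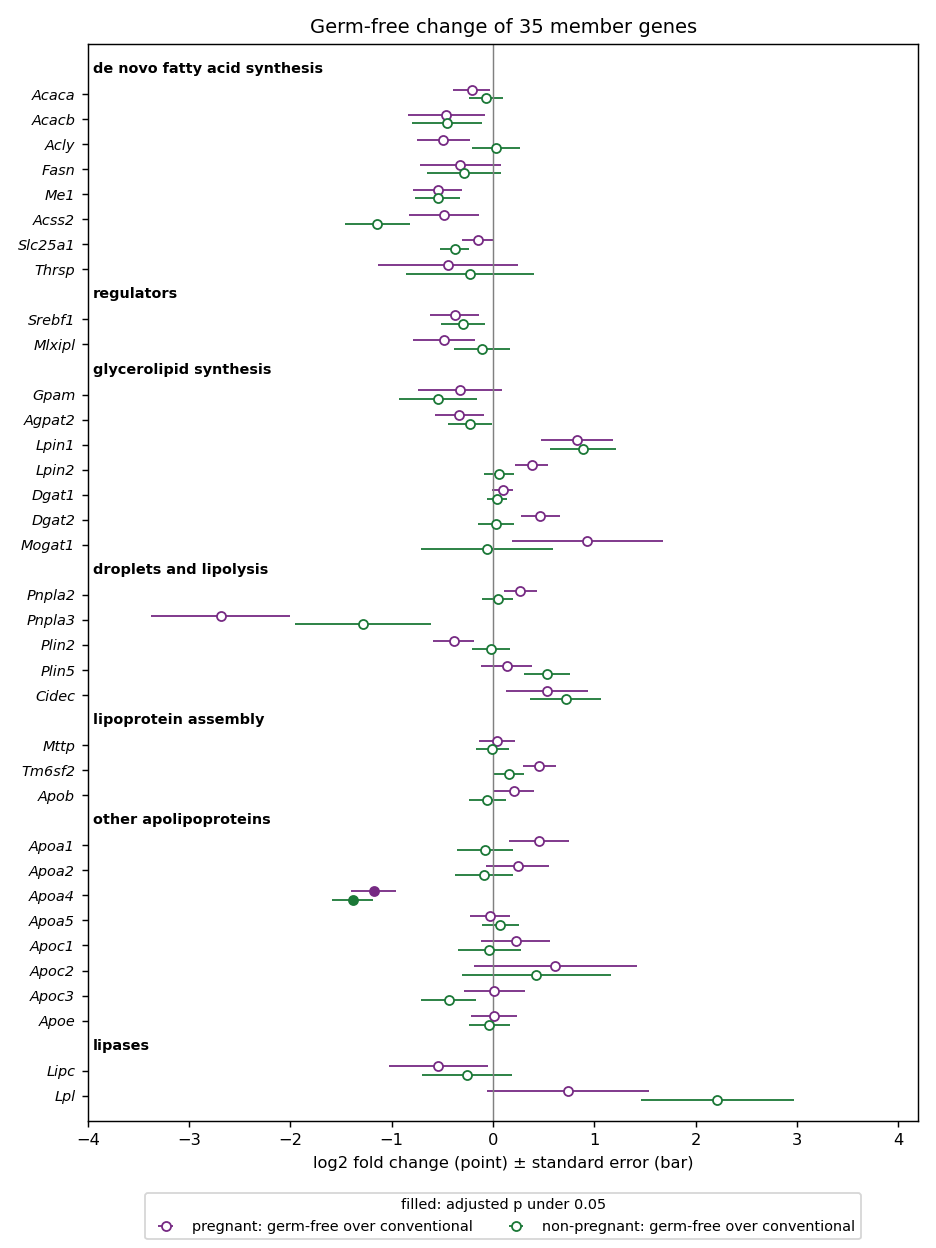
Log2 fold change (horizontal axis) with its standard error for germ-free over conventional mice, for all 35 genes grouped by role, in pregnant (purple) and non-pregnant (green) mice. Filled points mark an adjusted p under 0.05, which Apoa4 alone reached, left of 0 in both comparisons.

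Some genes stood apart between germ-free and conventional mice without a call. Pnpla3 was lower in all GP than in all CP libraries (-2.69 ± 0.69 on the log2 scale, adjusted p = 0.157), with 0.934 to 4.14 CPM in GP and 5.93 to 24.7 CPM in CP. Lpin1 was higher in all GP libraries (56.1 to 85.9 CPM) than in all CP libraries (14.7 to 50.5 CPM), with a log2 fold change of 0.83 ± 0.36, adjusted p = 0.418, and its log2 fold change in non-pregnant mice was 0.89 ± 0.33, adjusted p = 0.529. Acss2 had a log2 fold change of -1.14 ± 0.32, adjusted p = 0.214 in non-pregnant mice. Of the 35 genes, Lpl had the log2 fold change farthest from 0 between GN and CN (2.21 ± 0.76, adjusted p = 0.436), which was 0.55 without GN replicate 2.

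Whether the pregnancy change itself differed with microbiota status was tested as an interaction. No member was called (0 of 35, with 0 at an unadjusted p under 0.05, and 0 with DESeq2), and of all genes tested edgeR called 0%. Over all 15928 genes, 903 had an unadjusted p under 0.05 with edgeR, and DESeq2 called 2 higher and 5 lower of 34868. The 10 genes called in only 1 of the pregnancy comparisons had adjusted p values of 0.887 to 0.991 for the difference, so their changes were not shown to differ between germ-free and conventional mice. For Apoa4 the difference was 0.21 ± 0.30, adjusted p = 0.947.

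Further genes of the same pathways (69 listed, 67 tested) were described beside the 35. In germ-free pregnancy 14 were called higher and 9 lower, and in conventional pregnancy 7 were called higher and 4 lower. Over all genes tested the shares were 7.15% higher and 3.6% lower in germ-free and 5.49% and 3.52% in conventional mice, and with lists this short a count of 1 lies near them. Of 23 genes of lipoprotein maturation and clearance, 7 were called higher and 2 lower in germ-free mice, and 4 higher and 1 lower in conventional mice. P4hb, the subunit that partners Mttp and also a protein disulfide isomerase, averaged 1904 ± 269 CPM in GP and 972 ± 100.4 CPM in GN, and 1434 ± 245 CPM in CP and 912 ± 162 CPM in CN. It rose in both (log2 fold change 0.97 ± 0.15, adjusted p = 0.000134 in germ-free mice and 0.65 ± 0.15, adjusted p = 0.00793 in conventional mice). Surf4, a cargo receptor for lipoprotein export, rose as well (0.86 ± 0.14, adjusted p = 0.000186 in germ-free mice and 0.51 ± 0.14, adjusted p = 0.0236 in conventional mice). Sdc1, a remnant receptor, rose in germ-free (1.05 ± 0.26, adjusted p = 0.0104) and in conventional mice (1.00 ± 0.26, adjusted p = 0.0179). Apof rose in germ-free mice (0.69 ± 0.12, adjusted p = 0.000436) and was not called in conventional mice (0.32 ± 0.12, adjusted p = 0.103). Lipg, endothelial lipase, named after its values were seen, fell in germ-free mice (-3.43 ± 0.67, adjusted p = 0.00125), where the call held in all 22 fits without 1 library, and was the 1 lower gene in conventional mice (-1.97 ± 0.62, adjusted p = 0.0475). Its conventional call was lost in 16 of 22 fits without 1 library, with adjusted p values of up to 0.105, and that of Surf4 without CP replicate 2 or 5 or CN replicate 2, 4 or 5 (0.42 to 0.49, adjusted p up to 0.0807). With library totals the calls of Sdc1 (0.76, adjusted p = 0.0660) and Apof (0.37, 0.0619) in germ-free mice and of P4hb (0.59, 0.0609), Surf4 (0.46, 0.149) and Lipg (-1.97, 0.0642) in conventional mice were lost, as were those of P4hb, Surf4 and Lipg with only the 2 groups in the fit (adjusted p = 0.0612, 0.104 and 0.0638). Without the filter on low counts the conventional calls of P4hb and Surf4 were lost too. The conventional Surf4 call also ended without replicate 2 of all groups (0.40, adjusted p = 0.146), and that of Lipg with age as a covariate.

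Of 16 regulators of lipogenesis, 2 were called higher and 3 lower in germ-free mice, and 0 higher and 1 lower in conventional mice, where 1 was higher at an unadjusted p under 0.05 and DESeq2 called 0 higher and 4 lower. Over all 15928 genes, 2056 were higher and 1446 lower at an unadjusted p under 0.05 in conventional mice with edgeR. DESeq2 called 1011 higher and 889 lower there, of 15886 genes. Ppargc1a, a coactivator of fasting metabolism, fell in both (-1.14 ± 0.25, adjusted p = 0.00346 in germ-free mice and -1.02 ± 0.25, adjusted p = 0.0116 in conventional mice), and its conventional call was lost without replicate 2 of all groups (-0.85, adjusted p = 0.0696). In germ-free mice Nr1h3, which encodes the liver X receptor alpha, rose (0.52 ± 0.13, adjusted p = 0.00981), and Mid1ip1, a partner of Thrsp in activating acetyl-CoA carboxylase, fell (-1.35 ± 0.34, adjusted p = 0.0101), and neither was called in conventional mice (0.30 ± 0.13, adjusted p = 0.170 for Nr1h3 and -0.99 ± 0.33, adjusted p = 0.0645 for Mid1ip1). Of 13 tested genes of glycerolipid synthesis, 3 were called higher and 2 lower in germ-free mice, and 2 higher and 0 lower in conventional mice, where edgeR had 1 lower gene at an unadjusted p under 0.05 and DESeq2 called 1 lower. Agpat3, a relative of Agpat2, rose in both (0.95 ± 0.15, adjusted p = 0.000120 in germ-free mice and 0.55 ± 0.15, adjusted p = 0.0218 in conventional mice), while Agpat2 was on the lower side. Gpd1, which makes glycerol 3-phosphate, rose in germ-free mice (1.05 ± 0.22, adjusted p = 0.00234), Gpat4, which adds the first fatty acid, fell there (-0.81 ± 0.18, adjusted p = 0.00440), and neither was called in conventional mice (0.61 ± 0.22, adjusted p = 0.0845 for Gpd1 and -0.54 ± 0.18, adjusted p = 0.0638 for Gpat4). Acsl5, a fatty acid activating enzyme, rose in germ-free (0.67 ± 0.20, adjusted p = 0.0289) and in conventional mice (0.80 ± 0.20, adjusted p = 0.0116), and its germ-free call was lost without GN replicate 2, 4 or 6 or GP replicate 3 or 5 (0.58 to 0.64, adjusted p up to 0.0955). The conventional call of Agpat3 was lost without CP replicate 3 or 5 or CN replicate 4 or 5 (0.47 to 0.51, adjusted p up to 0.0662). With library totals the calls of Nr1h3 (0.22, adjusted p = 0.399) and Acsl5 (0.34, 0.308) in germ-free mice and of Agpat3 (0.46, 0.162) and Acsl5 (0.71, 0.0667) in conventional mice were lost. Without the filter on low counts the germ-free calls of Nr1h3 and Acsl5 and the conventional call of Agpat3 were lost too. The conventional Agpat3 call also ended with only the 2 groups in the fit. Without replicate 2 of all groups the germ-free Acsl5 call was lost (0.60, adjusted p = 0.0694).

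Of 15 tested droplet genes, 2 were called higher and 2 lower in germ-free mice, and 1 higher and 2 lower in conventional mice. The droplet-bound dehydrogenases Hsd17b11 and Hsd17b13 fell in both comparisons. Hsd17b11 averaged 101 ± 4.04 CPM in GP and 206 ± 23.0 CPM in GN, and 85.5 ± 18.0 CPM in CP and 185 ± 25.8 CPM in CN, with log2 fold changes of -1.03 ± 0.14, adjusted p = 1.64e-05 in germ-free mice and -1.11 ± 0.14, adjusted p = 7.45e-06 in conventional mice. Hsd17b13 had log2 fold changes of -1.33 ± 0.21, adjusted p = 9.81e-05 in germ-free mice and -0.86 ± 0.20, adjusted p = 0.00803 in conventional mice. Bscl2, which encodes seipin, rose in germ-free mice (0.61 ± 0.13, adjusted p = 0.00306), and Abhd5, the activator of the lipase encoded by Pnpla2, rose in conventional mice (0.66 ± 0.17, adjusted p = 0.0154), a call lost without CP replicate 2 (0.48, 0.0722). Bscl2 was not called in conventional mice (0.05 ± 0.13, adjusted p = 0.889), nor Abhd5 in germ-free mice (0.50 ± 0.17, adjusted p = 0.0587), and both calls were lost with library totals (0.28, adjusted p = 0.234 for Bscl2 and 0.65, 0.0642 for Abhd5). Without replicate 2 of all groups the conventional Abhd5 call was lost as well (0.43, adjusted p = 0.0959). In the germ-free comparisons 0 of the 67 genes were called by edgeR, with 15 at an unadjusted p under 0.05 in pregnant mice and 11 in non-pregnant mice, and DESeq2 called 0 in pregnant mice and 1 higher and 1 lower in non-pregnant mice. Over all 15928 genes, 1672 had an unadjusted p under 0.05 with edgeR in pregnant mice and 957 in non-pregnant mice.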

How the data were processed

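Liver RNA was sequenced from 22 mice, 1 library each. The authors deposited a gene table of unscaled estimated counts. Their processing notes name Salmon 0.11.3 and edgeR 3.24.3 among the tools and GRCm38.p6 as the build, per the submitters. The annotation release was not given in the sources used here. Per the labels' protocols, the library kit was a NEBNext Ultra RNA kit; it does not mark strand, so overlapping genes, antisense ones included, are uncertain. Identifiers were matched to names with GENCODE M21 (97.7% with their version, 99.93% in all), and coordinates are 1-based on GRCm38. Among 50 pairs of libraries of one group, the lowest mean chi-square per gene was 36.5, so none was a repeat.

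Estimated counts were rounded, which changed 0.00829% of them. Genes passing the default filter of edgeR 4.0.16 (minimum count 10, total 15) were scaled by TMM and fitted in 1 quasi-likelihood model of the 4 groups (R 4.3.3). P-values were adjusted by Benjamini-Hochberg over all 15928 genes, and those printed come from this fit unless another tool is named. Standard errors are the fitted change divided by the square root of F. The fit was tested on simulated data. Alternatives were other scalings, DESeq2 1.42.0, no filter, fewer groups, a replicate block, age, mitochondrial genes left out and each library left out. The members and lists were chosen with earlier results of these data known. The libraries' values were printed for up to 6 called members with the smallest adjusted p in each comparison, and for each further list the 3 called genes with the smallest adjusted p were named. Promoter sequences are RefSeq's (GRCm38.p6).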

Additional observations from a re-analysis of the deposited data

Results flagged for a closer look

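In 140 combinations of a gene and a group, the highest or lowest library was compared with the gap to its nearest neighbour by Dixon's criterion on log2(CPM + 0.1), and 11 stood apart. Chance gives about 1 in 20. Of the 11, 3 were in CP replicate 2, the library with high acute-phase genes. There Fasn was at 144 CPM beside 255 to 309 CPM in the other CP libraries, Srebf1 at 71.4 CPM beside 142 to 184 CPM, and Lpin1 at 14.7 CPM beside 35.4 to 50.5 CPM. In CP replicate 1 Lipc was at 208 CPM beside 16.5 to 33.1 CPM, and Acly at 142 CPM beside 84.7 to 96.4 CPM. In CP replicate 3 Plin2 was at 477 CPM beside 280 to 326 CPM. In GN replicate 2 Lpl was at 712 CPM beside 32.8 to 81.0 CPM, and Thrsp at 27.3 CPM beside 266 to 879 CPM. In CN replicate 1 Apoa1 was at 13075 CPM beside 6859 to 8178 CPM, and Mogat1 at 0.0445 CPM beside 0.341 to 0.635 CPM. In CN replicate 6 Tm6sf2 was at 42.9 CPM beside 27.9 to 32.2 CPM.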

How the results depend on the processing

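Of the called genes, none changed direction under any alternative. With library totals without TMM, an alternative added after seeing the data, the median of all genes was -0.33 in germ-free pregnancy and -0.28 for germ-free status in pregnant mice, and log2 values there are relative to that shift. That setting gave 3 genes higher in conventional pregnancy (5 with TMM), and 3 higher and 14 lower in germ-free pregnancy (6 and 9 with TMM). Over all genes it called 551 higher in conventional pregnancy, and 470 higher and 2126 lower in germ-free pregnancy. Without the filter on low counts, 3 were higher in germ-free pregnancy, where 887 of all 35072 genes were. DESeq2 gave 11 lower in conventional pregnancy (6 in edgeR) and 2 lower for germ-free status in non-pregnant mice (1 in edgeR). Over all genes DESeq2 called 889 and 59 lower in these comparisons. With only the 2 groups compared in the fit, 0 were lower for germ-free status in pregnant mice (1 with all groups), where 3 of 14203 genes were. The causes were not tested.

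Leaving out each library in turn gave 4 to 7 higher and 2 to 9 lower genes in germ-free pregnancy, and 3 to 8 higher and 3 to 10 lower in conventional pregnancy. Germ-free status gave 0 to 0 higher in both, 0 to 1 lower in pregnant mice and 1 to 1 lower in non-pregnant mice, and the interaction gave 0 to 0. Same-numbered libraries correlated at -0.26 to 0.31, with all 5 germ-free pregnancy pairs above 0 (0.0044 to 0.15) but in no comparison every pair over 0.1, and 1 of 5, 2 of 5, 1 of 6 and 0 of 5 libraries correlated best with their own number in the comparisons of conventional pregnancy, germ-free pregnancy, non-pregnant and pregnant mice. A replicate block ended the calls of Apoa1, Dgat1 and Lpin1 in germ-free pregnancy and of Apoc1 and Apoc2 in conventional pregnancy, and made those of Acacb in both and of Lipc in conventional pregnancy. It gave 6 higher and 7 lower in germ-free pregnancy, 5 and 6 in conventional pregnancy, 0 and 1 for germ-free status in pregnant and in non-pregnant mice, and 0 for the interaction. Over all genes it called 1120 higher and 507 lower in germ-free pregnancy, and 733 and 470 in conventional pregnancy.

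Uncalled differences between the germ-free and the conventional pregnancy change crossed 0 for 4 genes. Without each library in turn they were -0.32 to 0.15 for Agpat2, -0.28 to 0.25 for Lpin1, -0.61 to 0.15 for Cidec and -0.68 to 0.99 for Lipc. For Agpat2 the difference was 0.021 with age as a covariate, and with the replicate block it was 0.15 for Lpin1 and 0.047 for Lipc. For Cidec it was 0.36 without replicate 2 of all groups. With 5 or 6 mice a group, an uncalled gene is not shown to be equal between groups.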
